A study of Mus musculus with 12 samples.

Results

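In mouse embryonic fibroblasts, 25 genes of the 24207 in the table of read counts were close to unread with a scrambled hairpin, both before and after the reprogramming factors were switched on, and were read once Trim28 was knocked down. A gene was taken when its mean was 0.2 CPM or less in both scrambled groups and 1 CPM or more with the Trim28 hairpin or with the Trim28 and Setdb1 hairpins together. CPM is a gene's reads over the library's total, times 1000000. Of 8102 genes under the first limit, 41 also passed the second. Of these, 9 long noncoding or antisense genes were left out, as were 7 by name, among them Slco1a6 and Colgalt2, whose symbols begin like those of the Slc and Col genes. The 25 comprised 21 protein-coding genes, 3 pseudogenes and 1 T cell receptor variable segment.

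The cells were C57BL/6 fibroblasts carrying FUW-OSKM and FUW-M2rtTA, lentiviral constructs that express Oct4, Sox2, Klf4 and Myc (OSKM) under doxycycline. Each of 4 groups had 3 libraries: uninduced cells without doxycycline and with a scrambled hairpin (the uninduced group), and 3 groups given doxycycline for 7 days, with a scrambled hairpin (the induced control), a Trim28 hairpin, or Trim28 and Setdb1 hairpins (both hairpins). Every group was cultured on a layer of irradiated feeder fibroblasts. The labels do not say whether the feeders were removed or whether replicates came from separate cultures, so the p-values speak of the spread among these libraries alone, which may be technical.

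Trim28 (also called KAP1) is a corepressor that zinc finger proteins of the KRAB type bring to chosen DNA sites, many of them in retrotransposons. It recruits Setdb1, which trimethylates lysine 9 of histone H3, a mark of silent chromatin. Loss of this system is known to release retrotransposons and, in places, genes that lie near them.

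The promoters of 4 genes are shown as examples from the comparison of the 2 knockdown groups. Gsdma3 and Dnah6 had log2 differences near 0 between these groups, and Ceacam10 and Prrt3 were read more with both hairpins. Other genes shared these patterns. The windows shown are described next. They are RefSeq windows of 300 bases in the build GRCm38.p6, from 250 bases before to 50 after the gene's start, written 5′ to 3′ on the gene's strand with CG dinucleotides, the sites of DNA methylation, in capitals.
Gsdma3 promoter, chr11:98626099-98626398, plus strand: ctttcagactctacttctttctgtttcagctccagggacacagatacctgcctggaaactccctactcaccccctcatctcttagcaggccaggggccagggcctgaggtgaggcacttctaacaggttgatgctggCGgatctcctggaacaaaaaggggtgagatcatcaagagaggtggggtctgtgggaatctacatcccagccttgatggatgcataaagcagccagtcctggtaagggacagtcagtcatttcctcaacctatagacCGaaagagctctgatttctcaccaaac
Dnah6 promoter, chr6:73221582-73221881, minus strand: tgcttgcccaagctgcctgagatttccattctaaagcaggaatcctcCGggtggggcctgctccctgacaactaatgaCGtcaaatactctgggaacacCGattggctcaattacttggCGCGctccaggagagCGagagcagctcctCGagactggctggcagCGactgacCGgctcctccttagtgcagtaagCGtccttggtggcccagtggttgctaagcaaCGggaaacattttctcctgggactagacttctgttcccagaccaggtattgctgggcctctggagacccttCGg
Ceacam10 promoter, chr7:24776917-24777216, plus strand: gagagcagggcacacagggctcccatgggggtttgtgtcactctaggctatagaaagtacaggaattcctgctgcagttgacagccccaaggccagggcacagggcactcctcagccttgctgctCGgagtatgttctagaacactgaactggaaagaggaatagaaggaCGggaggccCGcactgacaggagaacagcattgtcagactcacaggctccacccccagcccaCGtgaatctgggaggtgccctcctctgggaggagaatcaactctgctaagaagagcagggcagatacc
Prrt3 promoter, chr6:113501882-113502181, minus strand: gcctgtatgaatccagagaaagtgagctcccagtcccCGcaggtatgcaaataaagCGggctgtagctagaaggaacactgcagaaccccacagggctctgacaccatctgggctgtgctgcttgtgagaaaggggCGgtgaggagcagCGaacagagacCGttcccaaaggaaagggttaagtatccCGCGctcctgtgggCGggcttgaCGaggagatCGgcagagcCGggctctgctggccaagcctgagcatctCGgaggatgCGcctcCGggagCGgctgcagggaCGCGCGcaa

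The 4 windows held 2, 12, 4 and 18 CG dinucleotides in that order, so each pair joined a CG-poor and a CG-richer promoter. Of the 25 genes, 17 had a RefSeq window, and these held 2 to 21 CG dinucleotides with a median of 5. The windows of Tbxas1 and Clec12a lay 43.5 and 7.45 kb from the gene starts in the deposited coordinates. For Prrt3 and Ceacam10, RefSeq listed 2 windows, of which 1 was used. The median was 5 in the 3014 windows of genes silent in both scrambled groups and 20 in the 10582 windows of genes that passed the expression filter. The 17 windows were searched on both strands for 8 motifs, none of which contains another. The E-box CACGTG was in 3 of the 17 windows (Ceacam10, Aox4 and Cd244), against 7.24% of all promoters. The GC box GGGCGG was in 5 (35.9% of all), the TATA box TATAAA in 2 (14.2%), the CCAAT box CCAAT in 2 (37.9%), the AP-1 site TGACTCA in 2 (5.17%), the octamer ATTTGCAT in 1 (1.75%) and TGCCGC in 2 (11.6%). The Sox site CATTGTT was in none of the 17 and in 3.87% of all. In windows of genes silent in both scrambled groups, the shares in the same order were 5.873%, 24.85%, 15.96%, 37.06%, 5.939%, 1.792%, 6.868% and 4.015%. All are matches of letters, and no binding was measured.

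Library totals ran from 11906701 to 19191649 reads, so that 3 reads in a library stood for 0.156 to 0.252 CPM. The silent limit of 0.2 CPM applies to the mean of a group. Over a whole group, 3 reads stood for 0.0603 CPM in uninduced cells and 0.0628 CPM in the induced control. The limit thus lies above the 3 reads that a count of 0 over a group allows. Tbxas1, for example, had 10 reads over the induced control. Trim28, the hairpin target, had 339 ± 38.2 CPM (SD, n = 3) in the induced control, 59.7 ± 6.10 with its hairpin and 103 ± 6.22 with both. Setdb1 had 84.1 ± 4.99, 125 ± 0.818 and 63 ± 8.06 CPM in the same groups. Compared with the Trim28 hairpin alone, both hairpins gave a log2 difference of -0.95 ± 0.085 for Setdb1 (SE, edgeR quasi-likelihood adjusted p = 2.53e-06) and of 0.82 ± 0.10 for Trim28 (adjusted p = 4.3e-05), so the knockdown of Trim28 was less deep with both. The fibroblast markers (10 genes) summed to 15353 to 22400 CPM in the induced control, 12271 to 13779 with the Trim28 hairpin and 16184 to 18505 with both hairpins, and the part of this difference in the values below was not tested. In bulk RNA, fewer cells that read a gene and less RNA per cell cannot be told apart.

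The genes entered by different routes. The limit of 1 CPM was met in both knockdown groups by 8 genes (Gsdma3, Ceacam10, Dnah6, Abo, Tbxas1, Pde6a, Prrt3 and Clec12a), in the Trim28 group alone by 13, and with both hairpins alone by 4 (Dnah7a, BC051019, Cd244 and Gm1110). These limits chose the genes, so their levels against the controls are a description from which nothing is read. Mean levels ran from 0.185 to 12.8 CPM with the Trim28 hairpin, with a median of 1.19, and from 0.114 to 16.7 CPM with both hairpins, with a median of 0.929. In the induced control the median was 0.141 CPM and in uninduced cells 0.0204 CPM. Not a single read was found in the uninduced group for 8 of the genes, and 19 of the 25 were read more in the induced control than in uninduced cells. Every Trim28 library lay above all 6 scrambled libraries for 24 of the 25 genes, Pax3 being the exception, and every library with both hairpins did so for 19. Among all tested genes the shares were 12.3% and 8.42%. Of the 24 genes that passed the expression filter, 23 were higher with the Trim28 hairpin at an adjusted p under 0.05 (13.1% of all tested genes) and 19 with both hairpins (18.1%). These counts follow from the choice of genes and support nothing. Genes with the reverse pattern were fewer: 21 genes of any kind were at 0.2 CPM or less in the induced control and at 1 CPM or more in both knockdown groups, and 4 genes went the other way. The uninduced group was not used in these counts. The 21 include the described genes that met the limit in both knockdown groups, and the difference was not tested.

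**Figure D1:**
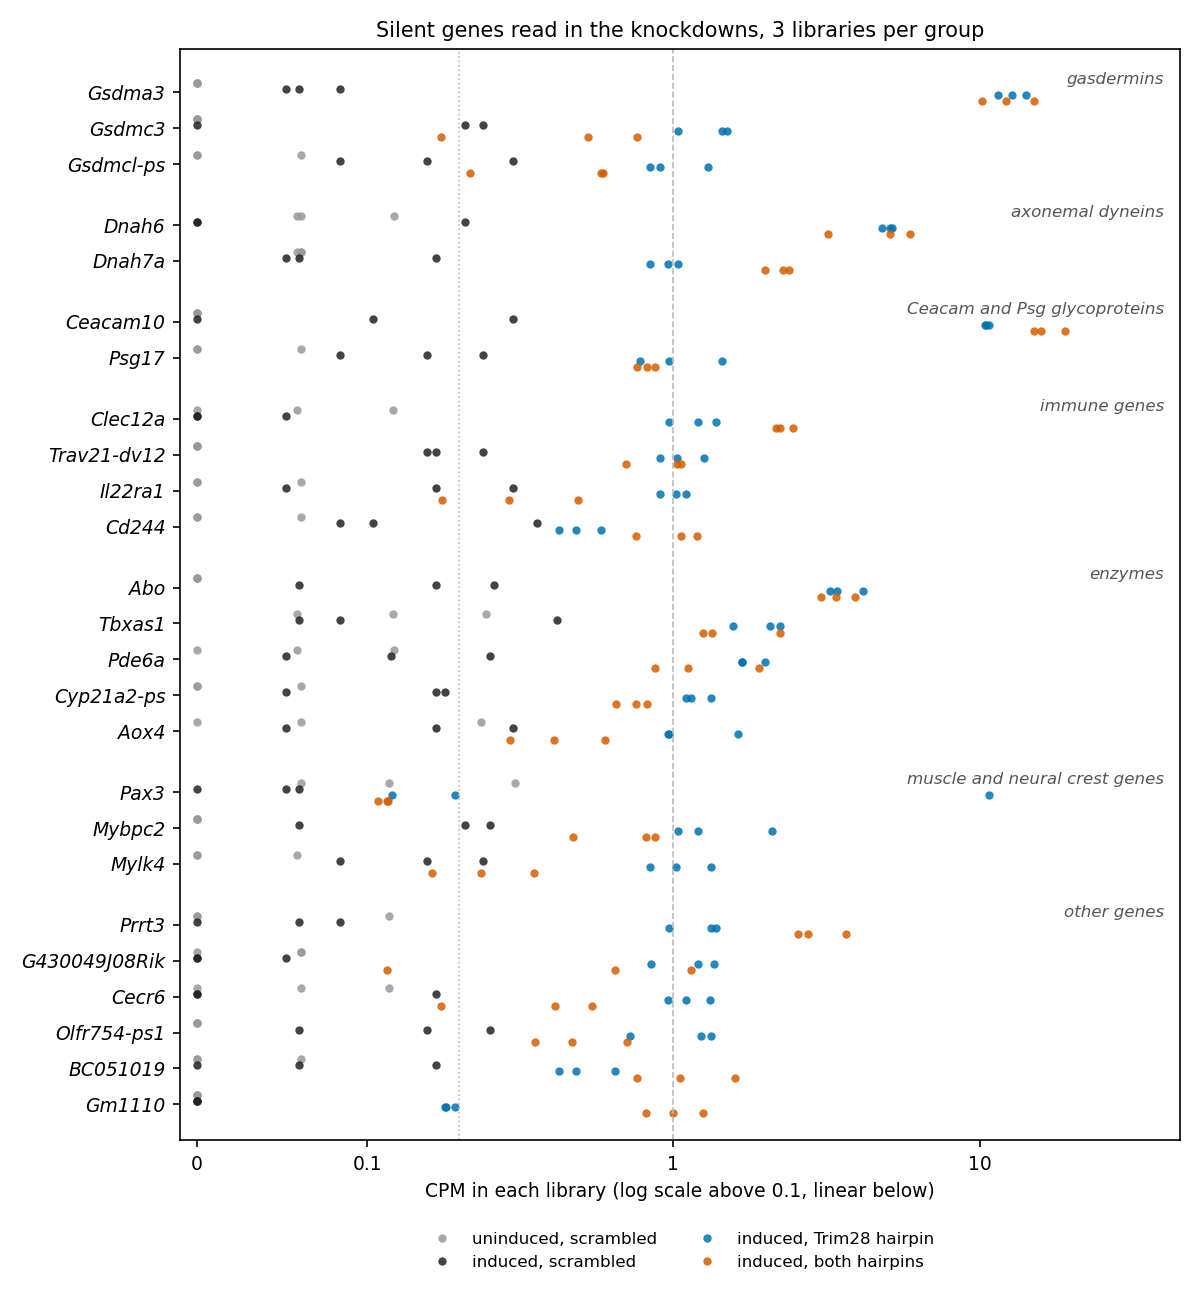
CPM of each of the 25 silent genes in every library, 1 point per library, grouped by role; the axis is logarithmic above 0.1 and linear below, the dotted line marks 0.2 CPM and the dashed line 1 CPM. For 24 of the 25 genes every Trim28 library lies to the right of all 6 scrambled libraries, and for 19 every library with both hairpins does. Gsdma3 and Ceacam10 lie farthest right with either set of hairpins, and for Pax3 the only point above 1 CPM is Trim28 replicate 3.

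Several genes lay close to the limits. Just inside the silent limit were Trav21-dv12 at 0.188 CPM and Tbxas1 at 0.187 CPM in the induced control, and just outside it were 1700003M02Rik and Pde11a, whose means rounded to 0.2 CPM. Just inside the limit of 1 CPM were Cd244, at 1.00 CPM with both hairpins, and Il22ra1, at 1.01 CPM with the Trim28 hairpin. Just outside it, in the Trim28 group, were Alox15 at 0.991 CPM and Dcdc2a at 0.977 CPM.

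Gasdermins are pore-forming proteins that open the cell membrane in inflammatory cell death, and those of the A and C groups are best known from skin and gut epithelium. Gsdma3 (chromosome 11, 98626360 to 98638226) had the highest level of the 25 genes per kilobase of exon with the Trim28 hairpin, 7.93 CPM per kb. It had 0, 0 and 0 reads in the uninduced libraries, 1, 1 and 1 in the induced control, 177, 236 and 212 with the Trim28 hairpin and 258, 187 and 208 with both hairpins. The knockdown libraries were far above all 6 scrambled libraries, and the 2 knockdown groups overlapped. Its mean was 12.8 ± 1.39 CPM (SD, n = 3) with the Trim28 hairpin and 12.5 ± 2.45 with both. Against the 3 control reads this was a ratio of 204 (95% counting interval 69.6 to 993) and of 198 (67.3 to 960.5). Such intervals cover counting error only, as the reads carry no molecular identifiers.

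Gsdmc3 (chromosome 15, 63857724 to 63878558) and the pseudogene Gsdmcl-ps (63914448 to 63925666) lay 35.9 kb apart, the only pair among the 25 within 1 Mb of each other. Gsdmc3 had 0, 0 and 0 reads in uninduced cells, 4, 0 and 4 in the induced control, 16, 24 and 25 with the Trim28 hairpin and 3, 14 and 9 with both hairpins. Gsdmcl-ps had 0, 0 and 1, then 5, 1 and 3, then 20, 15 and 14, then 10, 4 and 10 reads in the same order of groups. Both genes were read most with the Trim28 hairpin, and with both hairpins 1 library of each fell within the range of the induced control.

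The other gasdermin genes of these 2 clusters were taken as a set after the members were known. Gsdmc2, 12.5 kb from Gsdmc3, was read at 0.271 ± 0.0255 CPM in the induced control, just over the silent limit. With the Trim28 hairpin it rose to 6.00 ± 0.392 CPM (log2 change 4.44 ± 0.27, SE, edgeR adjusted p = 5.07e-08), and to 1.60 ± 0.446 CPM with both hairpins (2.58 ± 0.34, adjusted p = 4.12e-05). With both hairpins it was lower than with the Trim28 hairpin alone, by a log2 difference of -1.86 ± 0.19 (adjusted p = 2.06e-05). Gsdmc, Gsdmcl2 and Gsdmc4 did not pass the expression filter, and had 0.424 ± 0.297, 0.308 ± 0.0611 and 0.616 ± 0.0647 CPM with the Trim28 hairpin against 0.136 ± 0.127, 0.0280 ± 0.0485 and 0.0975 ± 0.105 CPM in the induced control. The gasdermin C genes are near-identical copies of each other, so reads may have been split or lost between them, and the level of any single one is uncertain. In the gasdermin A cluster the neighbours of Gsdma3 did not share its pattern: Gsdma fell from 1.95 ± 0.238 to 0.986 ± 0.0418 CPM with the Trim28 hairpin (log2 -0.98 ± 0.25, adjusted p = 0.00951) and to 0.928 ± 0.352 CPM with both (-1.03 ± 0.25, adjusted p = 0.00472), and Gsdma2 had at most 0.0571 ± 0.00243 CPM, in the group with both hairpins.

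**Figure D2:**
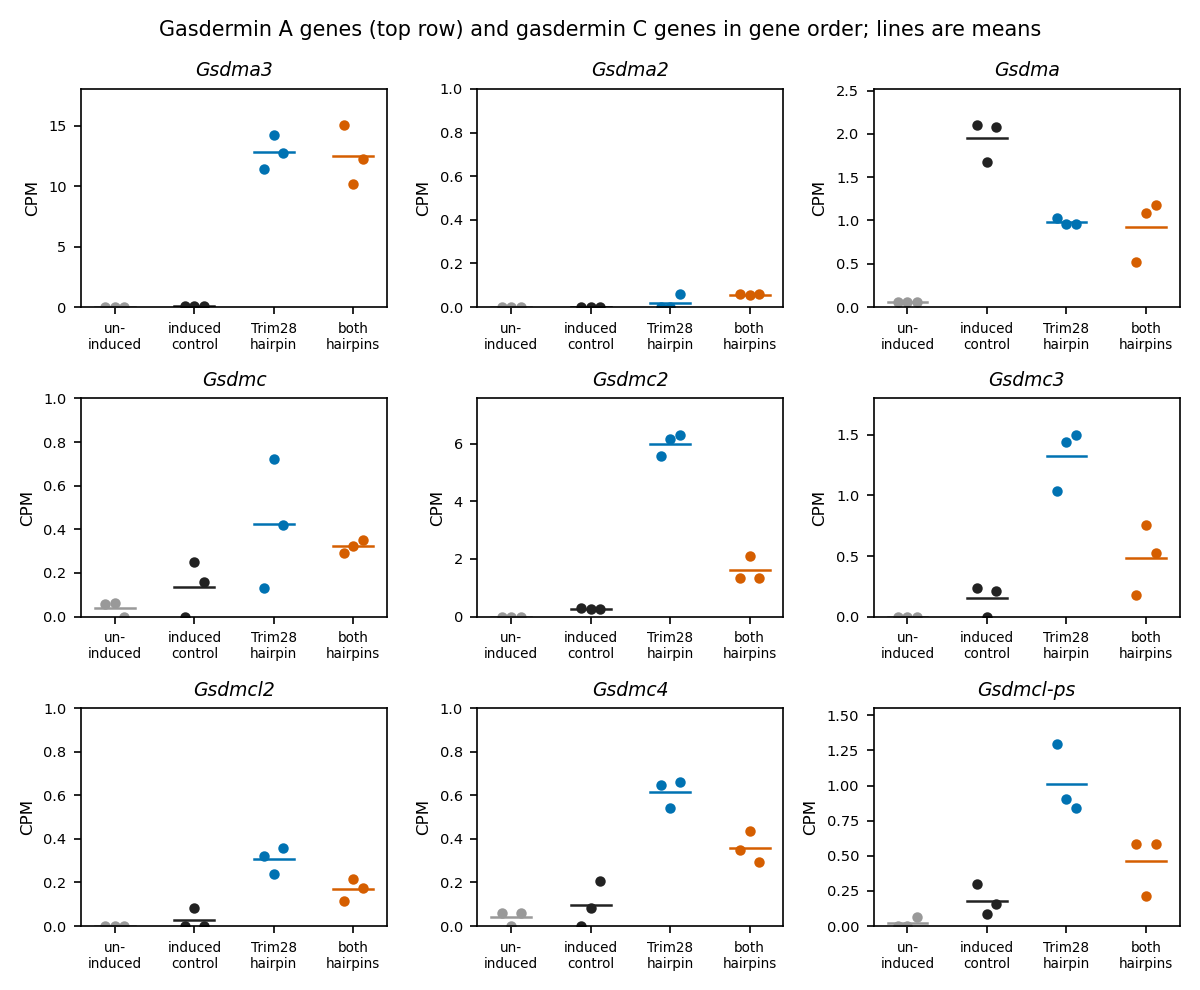
CPM of 9 gasdermin genes in each library (points) with the group mean (lines), the gasdermin A genes in the top row. Gsdma3 is read at 12.8 and 12.5 CPM in the knockdown groups while Gsdma is lower there than in the induced control, and the gasdermin C genes are highest with the Trim28 hairpin, Gsdmc2 at 6.00 CPM.

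Axonemal dynein heavy chains are the motors of cilia and sperm tails, and Dnah6 and Dnah7a belong to the inner dynein arms. Dnah6 (chromosome 6, 73017606 to 73221651) had 1, 1 and 2 reads in uninduced cells, 0, 0 and 4 in the induced control, 74, 86 and 85 with the Trim28 hairpin and 55, 109 and 87 with both hairpins. All 6 knockdown libraries were above all scrambled ones, and the 2 knockdown groups overlapped, at 5.02 ± 0.210 and 4.74 ± 1.39 CPM (SD, n = 3). Per kilobase of exon it was much less read than Gsdma3, at 0.379 CPM per kb with the Trim28 hairpin. Dnah7a (chromosome 1, 53397006 to 53706784) had 1, 1 and 1 reads in uninduced cells, 1, 2 and 1 in the induced control, 16, 16 and 14 with the Trim28 hairpin and 39, 44 and 34 with both. Its libraries with both hairpins were all above its Trim28 libraries. Dnah7a shares much of its sequence with Dnah7b and Dnah7c, so its count is uncertain. Dnah7b fell with the Trim28 hairpin, by 1.23 on the log2 scale (SE 0.34, adjusted p = 0.0134), and was at -0.62 ± 0.31 with both (adjusted p = 0.128).

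Other dynein heavy chain genes, again a set chosen with the members known, went in different directions. Dnah8, which missed the silent limit at 0.288 ± 0.032 CPM in the induced control, rose to 8.47 ± 0.35 CPM with the Trim28 hairpin (log2 4.84 ± 0.22, adjusted p = 3.67e-10) and to 9.56 ± 1.27 CPM with both (5.05 ± 0.22, adjusted p = 1.52e-10). Dnah17 and Dnah5 fell with either set, by log2 -1.55 and -0.90 with the Trim28 hairpin (adjusted p = 6.63e-05 and 0.0493) and by -1.70 and -1.92 with both (adjusted p = 1.95e-05 and 0.000657). Foxj1, a main activator of motile cilium genes, was below the expression filter, at 0.384 ± 0.178 CPM in the induced control, 0.168 ± 0.138 with the Trim28 hairpin and 0.287 ± 0.105 with both. The table lists 15 dynein heavy chain genes, Dnah6 and Dnah7a included. Of the 7 that were tested, 3 were higher and 3 lower with the Trim28 hairpin, and 4 were higher and 2 lower with both hairpins, where Dnah10 also rose (log2 1.26 ± 0.22, adjusted p = 0.000367). Among all tested genes 13.1% were higher and 11.8% lower with the Trim28 hairpin, and 18.1% and 18.5% with both. Dnah6 and Dnah7a are among the higher genes in both comparisons. The limits that chose them favour that direction, so nothing is read from the counts of higher genes.

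Ceacam10 and Psg17 belong to one family of immunoglobulin-like glycoproteins on chromosome 7, of adhesion proteins and, in Psg17, of pregnancy-specific proteins of the placenta. Ceacam10 (24777204 to 24784649) had 0, 0 and 0 reads in uninduced cells, 5, 0 and 2 in the induced control, 166, 173 and 175 with the Trim28 hairpin and 327, 278 and 270 with both hairpins. It was the gene with the highest level per kilobase with both hairpins, 11.1 CPM per kb, against 7.05 with the Trim28 hairpin, and those 2 groups of libraries did not overlap. Psg17 (18813937 to 18821607) was read less, with 0, 1 and 0, then 4, 1 and 3, then 15, 24 and 13, then 15, 14 and 14 reads, and its knockdown groups overlapped. The Psg genes resemble each other closely, so this count is uncertain. Of the 14 family genes in the table, only Ceacam1 and Ceacam20 were tested beside these 2. Ceacam20 rose with the Trim28 hairpin (log2 0.67 ± 0.18, adjusted p = 0.0116), and Ceacam1 fell with both hairpins (log2 -1.04 ± 0.12, adjusted p = 4.41e-06).

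The immune genes comprised receptors of different cell types. Clec12a (chromosome 6, 129342691 to 129365303), an inhibitory lectin receptor of myeloid cells, had 1, 2 and 0 reads in uninduced cells, 0, 0 and 1 in the induced control, 15, 20 and 23 with the Trim28 hairpin and 37, 41 and 42 with both. The libraries with both hairpins were all above the Trim28 libraries, which were all above the 6 scrambled libraries. Cd244 (chromosome 1, 171559193 to 171585318), a receptor of natural killer cells, had 0, 0 and 1, then 6, 1 and 2, then 9, 7 and 8, then 13, 22 and 18 reads in the same order. Il22ra1, the interleukin 22 receptor of epithelia, had 17, 15 and 17 reads with the Trim28 hairpin and 5, 9 and 3 with both, and Trav21-dv12, a variable segment of the T cell receptor alpha locus, had 14, 17 and 21 and then 12, 19 and 18. In the induced control they had 8 and 9 reads in all.

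Defining markers of lymphocytes were near 0 in every group. The 5 lymphocyte markers in the table (Cd2, Cd3e, Cd3g, Cd79a and Ms4a1) were each under 1 CPM in every library and summed to 0.120 to 0.417 CPM in the induced control, 0.181 to 0.600 with the Trim28 hairpin and 0.217 to 0.349 with both. The 10 macrophage markers summed to 64.3 to 74.9, 62.2 to 72 and 47.8 to 58.2 CPM in these groups and to 8.91 to 11 CPM in uninduced cells. These sums lay mainly in Cd68, Csf1r, Cd14, Itgam, Laptm5 and Lyz2, while Ptprc, Fcer1g, Emr1 and Tyrobp, which mark leukocytes and macrophages, were under 1 CPM throughout. The 8 keratinocyte markers, set beside the skin gasdermins, summed to 625 to 682, 603 to 683 and 407 to 501 CPM. The part of the macrophage and keratinocyte sums in the values of the silent genes was not tested.

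Enzyme genes made up another 5. Abo (chromosome 2, 26842503 to 26864979), the glycosyltransferase of the A and B blood group antigens, had 0, 0 and 0 reads in uninduced cells, 1, 2 and 5 in the induced control, 53, 69 and 54 with the Trim28 hairpin and 52, 72 and 58 with both. Its means in the knockdown groups were 3.61 ± 0.483 and 3.45 ± 0.441 CPM (SD, n = 3), which overlapped and stood well above every scrambled library. Tbxas1 (chromosome 6, 38875404 to 39084585), thromboxane A synthase, had 1, 2 and 4, then 1, 1 and 8, then 32, 37 and 26, then 23, 23 and 38 reads, with 1 induced control library, replicate 3, supplying most of the control reads. Pde6a (chromosome 18, 61220482 to 61289924), the alpha subunit of the rod photoreceptor phosphodiesterase, had 1, 0 and 2, then 2, 3 and 1, then 26, 33 and 28, then 15, 35 and 19 reads. For both, the knockdown groups overlapped each other and neither overlapped the scrambled groups.

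Aox4 (chromosome 1, 58210397 to 58268597), an aldehyde oxidase, had 4, 1 and 0 reads in uninduced cells, 5, 2 and 1 in the induced control, 15, 16 and 27 with the Trim28 hairpin and 7, 11 and 5 with both, where the lowest library was within the range of the induced control. Its neighbour Aox3, 9.70 kb away, went up with the Trim28 hairpin, from 1.09 ± 0.163 to 3.40 ± 0.652 CPM (log2 1.63 ± 0.23, adjusted p = 5.76e-05) and stood at 1.64 ± 0.264 CPM with both (0.61 ± 0.25, adjusted p = 0.0648). Cyp21a2-ps (chromosome 17, 34719813 to 34722252), a pseudogene of the steroid 21-hydroxylase gene, had 0, 1 and 0, then 3, 2 and 1, then 17, 22 and 19, then 13, 12 and 14 reads. With the Trim28 hairpin its near-identical working copy Cyp21a1 rose from 2.35 ± 0.453 to 29.9 ± 0.966 CPM (log2 3.72 ± 0.14, adjusted p = 3.71e-11) and to 28.1 ± 2.25 CPM with both (3.66 ± 0.14, adjusted p = 4.35e-11), so reads of the copy may stand in the pseudogene's count. Tnxb, which overlaps the pseudogene's end, rose by 1.32 ± 0.22 and 1.37 ± 0.22 on the log2 scale (adjusted p = 0.000364 and 0.000165).

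Of the muscle and neural crest genes, Pax3 owed its place to 1 library. Pax3 (chromosome 1, 78101267 to 78197134), a transcription factor of neural crest and muscle progenitors, had 2, 5 and 1 reads in uninduced cells, 1, 0 and 1 in the induced control, 3, 2 and 178 with the Trim28 hairpin and 2, 2 and 2 with both. Its 10.7 CPM in Trim28 replicate 3 stood against 0.194 and 0.120 CPM in the other 2 libraries of that group, and it did not pass the expression filter. Without that library Pax3 would not have met the limit. Pax3 was read at least 5 times as much in Trim28 replicate 3 as in every other library. Sgpp2, over 100 kb away, was at log2 -0.40 ± 0.30 with the Trim28 hairpin (adjusted p = 0.368), and its relative Pax7 had at most 0.0907 ± 0.0848 CPM, in the induced control.

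Mybpc2 (chromosome 7, 44501699 to 44524669), the fast-muscle myosin-binding protein C, had 0, 0 and 0 reads in uninduced cells, 1, 3 and 4 in the induced control, 16, 20 and 35 with the Trim28 hairpin and 15, 15 and 8 with both. Mylk4, a myosin light chain kinase gene, had 13, 22 and 17 reads with the Trim28 hairpin and 6, 3 and 4 with both, against 4, 1 and 3 in the induced control, which the group with both hairpins overlapped. The 8 muscle markers summed to 15.8 to 20.1 CPM in the induced control, 33.9 to 35.6 with the Trim28 hairpin and 45.8 to 57.0 with both, a sum made mainly of Acta1, skeletal alpha-actin. Myod1, Myog, Ckm and Actc1 were under 1 CPM in every library. The part of the marker sum in the values of Mybpc2 and Mylk4 was not tested.

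Prrt3 (chromosome 6, 113494095 to 113501818), a proline-rich transmembrane protein gene, had 2, 0 and 0 reads in uninduced cells, 1, 1 and 0 in the induced control, 15, 22 and 23 with the Trim28 hairpin and 63, 47 and 47 with both. The libraries with both hairpins were all above the Trim28 libraries, and against 2 control reads the ratios were 29.4 (95% counting interval 7.80 to 248.5) and 71.2 (19.4 to 593.5). Gm1110 (chromosome 9, 26879567 to 26923081) was unread in all 6 scrambled libraries, with 3, 3 and 3 reads with the Trim28 hairpin and 14, 23 and 17 with both, at least 2.94-fold and at least 16.3-fold higher than a floor of 3 reads over the induced control. BC051019 (chromosome 7, 109712181 to 109723850) had 0, 0 and 1, then 1, 2 and 0, then 10, 7 and 8, then 18, 14 and 27 reads, again with no overlap between the knockdown groups. Cecr6, a transmembrane protein gene, had 17, 16 and 22 reads with the Trim28 hairpin and 3, 10 and 7 with both. The predicted gene G430049J08Rik and the olfactory receptor pseudogene Olfr754-ps1 had 55 and 53 reads over the Trim28 libraries, 34 and 27 over those with both hairpins, and 1 and 7 over the induced control.

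The 2 knockdown groups differed by the Setdb1 hairpin and also by the depth of the Trim28 knockdown. Trim28 stood at 59.7 CPM with its hairpin and at 103 CPM with both. In the differences between these groups the 2 cannot be told apart. The limits used the means of both these groups, though not their difference, and a gene that crossed 1 CPM between them could not be among the 8 genes read at 1 CPM or more in both. The number of these 8 that were higher or lower with both hairpins is therefore shaped by the limits, most of all for genes near 1 CPM. With both hairpins 3 of the 8 were higher than with the Trim28 hairpin at an adjusted p under 0.05 (edgeR quasi-likelihood test over 14520 genes), where 10% of all tested genes were higher and 11.7% lower. Ceacam10, which lay far above the limit in both groups, was higher by 0.69 ± 0.15 on the log2 scale (SE, adjusted p = 0.00433), from 10.6 ± 0.161 to 16.7 ± 2.10 CPM. Prrt3 and Clec12a were close to the limit in the Trim28 group. Prrt3 was higher by 1.31 ± 0.27 (adjusted p = 0.00259), from 1.23 ± 0.223 to 2.99 ± 0.595 CPM. Clec12a was higher by 0.97 ± 0.25 (adjusted p = 0.0107), from 1.19 ± 0.206 to 2.28 ± 0.162 CPM, and missed the threshold without Trim28 replicate 1 (adjusted p = 0.0521). In each of these 3 genes every library with both hairpins was above every Trim28 library. The share of all tested genes with this order was not counted, so nothing is read from the order.

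The remaining 5 did not pass. Gsdma3, Abo and Dnah6 had log2 differences of -0.01 ± 0.14, -0.03 ± 0.19 and -0.05 ± 0.22 (adjusted p = 0.979, 0.928 and 0.906), and Tbxas1 and Pde6a of -0.25 ± 0.30 and -0.42 ± 0.30 (adjusted p = 0.605 and 0.348). Those values do not show that the groups were equal, and the errors of Tbxas1 and Pde6a leave room for a moderate difference.

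**Figure D3:**
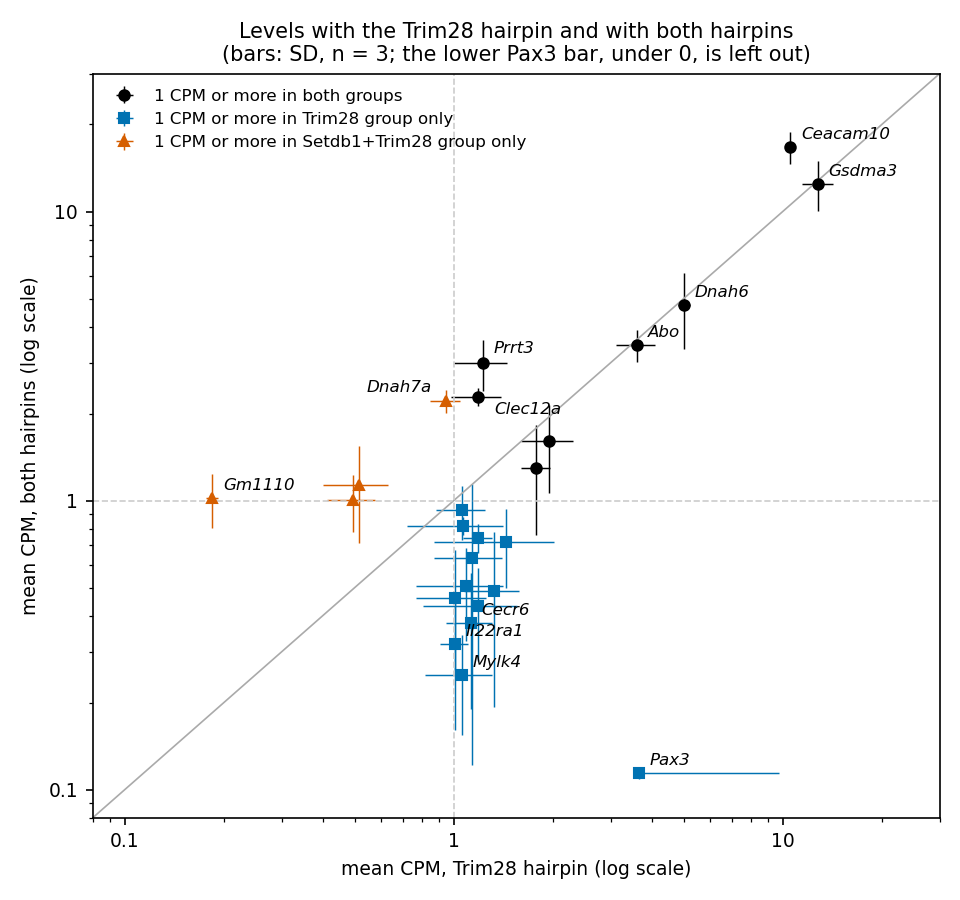
Mean CPM of each gene with the Trim28 hairpin (x axis) against both hairpins (y axis), both logarithmic, with SD bars (n = 3) and the diagonal of equal levels; symbols give the group in which the limit of 1 CPM (dashed) was met. Gsdma3, Abo and Dnah6 lie on the diagonal, Ceacam10, Prrt3 and Clec12a above it, and Pax3 stands apart at 3.67 and 0.114 CPM.

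For the genes read at 1 CPM in only 1 knockdown group, the limit itself sets the direction, so their differences are given as a description with no test. Of the 13 genes of the Trim28 route, 12 passed the expression filter. Mylk4 stood at -2.04 ± 0.39 on the log2 scale (SE), both hairpins minus the Trim28 hairpin, Il22ra1 at -1.59 ± 0.41, Cecr6 at -1.52 ± 0.43, Aox4 at -1.40 ± 0.43 and Gsdmc3 at -1.39 ± 0.42. Mybpc2, Gsdmcl-ps, Olfr754-ps1, G430049J08Rik, Cyp21a2-ps, Psg17 and Trav21-dv12 lay between -1.10 and -0.16. In Mylk4, Il22ra1, Cecr6, Aox4, Gsdmc3, Mybpc2, Gsdmcl-ps, Olfr754-ps1 and Cyp21a2-ps every library with both hairpins was below every Trim28 library. The limit favours this order, and the share of all tested genes with it was not counted, so nothing is read from it.

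The 4 genes that met the limit with both hairpins alone were chosen in the same way in the other direction. Gm1110 stood at 2.46 ± 0.40 on the log2 scale, Dnah7a at 1.26 ± 0.22, BC051019 at 1.15 ± 0.39 and Cd244 at 1.05 ± 0.37. In all 4 every library with both hairpins was above every Trim28 library, an order that the limit favours and from which nothing is read. Its share among all tested genes was not counted.

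**Figure D4:**
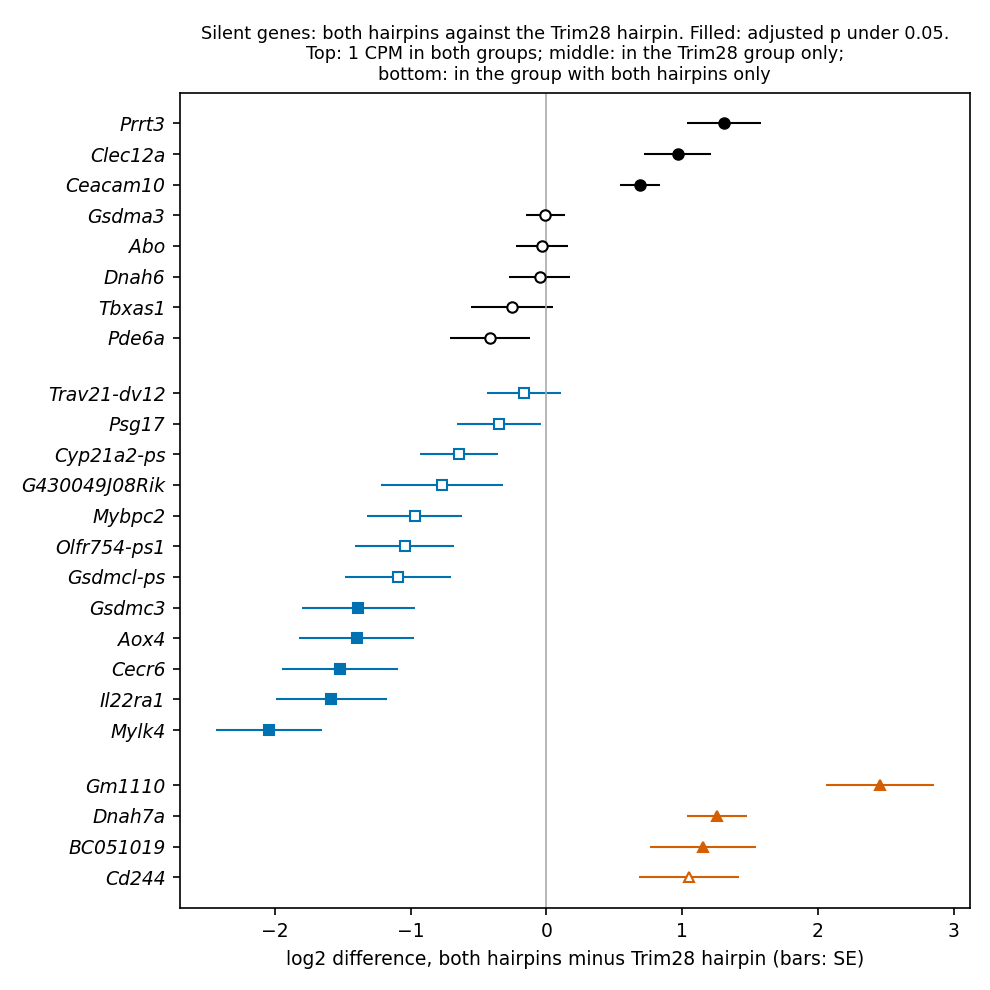
Log2 difference of the 24 tested genes, both hairpins minus Trim28 hairpin, with SE bars; filled symbols have an adjusted p under 0.05, from which nothing is read in the lower 2 blocks. The limits send genes that cross 1 CPM to those blocks, which lie to the left and right of 0 for that reason, and in the top block Prrt3, Clec12a and Ceacam10 are to the right of 0 and Gsdma3, Abo and Dnah6 near 0.

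By position, the 25 genes were spread over 12 chromosomes. Chromosome 6 held 5 of them (Dnah6, Prrt3, Clec12a, Cecr6 and Tbxas1), 20% of the genes against 4.98% of the table's genes, and chromosomes 1 and 7 held 4 each. Among the genes left out as noncoding, Gm26640 lay 60.4 kb from Dnah6. Of the 25, 5 were overlapped by another tested gene: Olfr754-ps1 by Gm20429 on the same strand, and Cyp21a2-ps, Pde6a, Tbxas1 and BC051019 by Tnxb, Rps2-ps10, Hipk2 and Akip1 on the opposite strand. Cyp21a2-ps and Tnxb share only the bases from 34719813 to 34719815. For the other pairs, no source says that reads were counted by strand, so reads from the shared stretches cannot be told apart. Gm20429 rose with the Trim28 hairpin (log2 2.97 ± 0.46, adjusted p = 0.000283), Akip1 fell (-0.63 ± 0.11, adjusted p = 0.000503), and Hipk2 and Rps2-ps10 did not pass (0.49 ± 0.17, adjusted p = 0.051, and -0.45 ± 0.22, adjusted p = 0.151).

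To see whether genes beside the 25 changed too, the nearest tested gene on each side was taken, up to 100 kb away. There were 33 such genes around 22 of the 25. With the Trim28 hairpin 9 of the 33 rose (27.3%, against 13.1% of all tested genes) and 3 fell (9.09%, against 11.8%), and their median log2 change was 0.06. With both hairpins 11 rose (33.3%, against 18.1%) and 6 fell (18.2%, against 18.5%), with a median of 0.18. The median of all tested genes was 0.00 in both comparisons, and most changes beside the silent genes were thus small. Gsdmc2, Aox3 and C4b, which lies 6.13 kb from Cyp21a2-ps and encodes a complement protein (log2 1.56 ± 0.21, adjusted p = 3.89e-05), were the only 3 that rose by more than 1 on the log2 scale with the Trim28 hairpin, and the first 2 belong to the families of the genes they flank.

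Smaller rises with the Trim28 hairpin were seen in Slc26a2, a sulfate transporter gene 8.87 kb from Pde6a (log2 0.78 ± 0.087, adjusted p = 5.86e-06), in Il17ra, an interleukin 17 receptor gene 5.21 kb from Cecr6 (0.48 ± 0.076, adjusted p = 0.000183), and in Wrnip1, 18.1 kb from Mylk4 (0.30 ± 0.077, adjusted p = 0.00844). The 3 that fell were Gsdma, Ifnlr1, an interferon lambda receptor gene 20 kb from Il22ra1 (-0.65 ± 0.17, adjusted p = 0.0114), and Cul2, 35.2 kb from G430049J08Rik (-0.31 ± 0.086, adjusted p = 0.0143). Creld1, 0.757 kb from Prrt3, rose by 0.27 ± 0.090 with the Trim28 hairpin (adjusted p = 0.0381) and by 0.63 ± 0.089 with both (adjusted p = 4.7e-05). The neighbours of Dnah6, Tmsb10 and Suclg1, and of Gsdma3 on its other side, Ormdl3, did not pass with the Trim28 hairpin (0.19 ± 0.080, -0.11 ± 0.064 and 0.03 ± 0.095, adjusted p = 0.0925, 0.25 and 0.863). With both hairpins Tmsb10 rose by 0.50 ± 0.080 (adjusted p = 0.000147), and Suclg1 and Ormdl3 did not pass (-0.05 ± 0.064 and 0.24 ± 0.094, adjusted p = 0.551 and 0.0521).

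**Figure D5:**
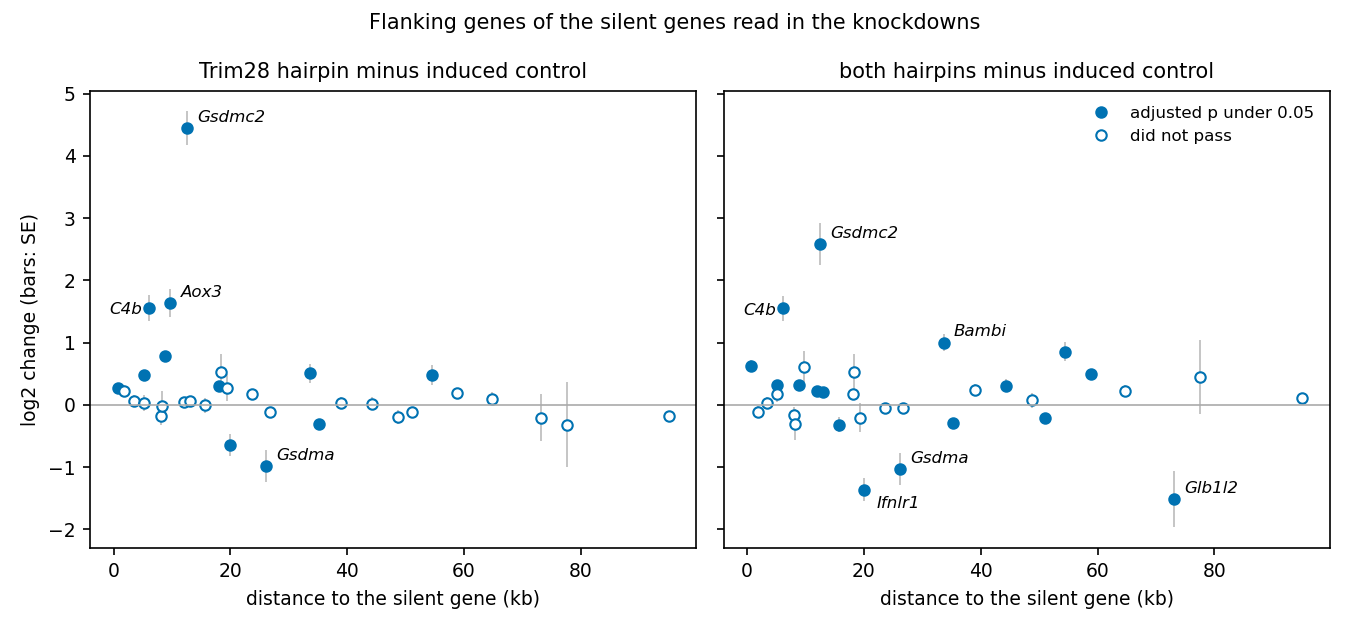
Log2 change of the 33 flanking genes (y axis, SE bars) by distance in kb to the silent gene (x axis), with the Trim28 hairpin on the left and both hairpins on the right; filled points have an adjusted p under 0.05. Gsdmc2 stands highest in both panels, at 4.44 and 2.58, and most other points lie between -1 and 1.

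The repression machinery and the gene groups it is known to hold silent were described from lists that contain none of the 25. Of the 28 machinery genes, 2 rose and 7 fell with the Trim28 hairpin, and 2 rose and 12 fell with both hairpins, with medians of -0.09 and -0.19 on the log2 scale. Of all tested genes 13.1% rose and 11.8% fell with the Trim28 hairpin, and 18.1% rose and 18.5% fell with both. The hairpin targets are in these counts: Trim28 among those that fell in both comparisons, and Setdb1 among those that rose with the Trim28 hairpin and those that fell with both. Atf7ip2, a relative of the Setdb1 partner Atf7ip, rose by 1.93 ± 0.17 (adjusted p = 6.14e-07) and 2.24 ± 0.17 (adjusted p = 6.62e-08). Atf7ip itself was lower with the Trim28 hairpin, at -0.395 ± 0.071 (adjusted p = 0.0006), and higher with both, at 0.525 ± 0.070 (adjusted p = 2.72e-05). Dnmt3b, a DNA methyltransferase, fell by 0.76 (SE 0.16, adjusted p = 0.00196) and by 1.66 (SE 0.17, adjusted p = 1.56e-06). Of 27 germline genes that the table holds, 7 were tested, of which 3 rose and 1 fell with the Trim28 hairpin and 3 rose with both hairpins, to be read against the same shares of all tested genes. Piwil2, of the piRNA pathway, was the only one to rise in both comparisons, by 0.91 ± 0.12 (adjusted p = 2.61e-05) and 0.44 ± 0.12 (adjusted p = 0.00767). Brdt, the 1 that fell, at -0.74 ± 0.22 (adjusted p = 0.0184), missed the threshold without Trim28 replicate 1. Of the 20 genes of the 2-cell embryo in the table only Sp110 and Zfp352 were tested, and both fell with both hairpins (-1.10 ± 0.41 and -1.37 ± 0.40, adjusted p = 0.0442 and 0.0143). With the replicate block 1 of these 2 passed, and none without replicate 3 of the induced control or replicate 1 of the group with both hairpins.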

How the data were processed

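RNA of 12 libraries, 4 groups of 3, was sequenced after Trizol extraction and TruSeq library preparation, per the labels' protocols. The authors deposited whole-number read counts per gene, made with TopHat2 2.0.12, Bowtie 1.1 and HTSeq, per the submitters' processing notes. The genome build and the use of strand in counting are not given in the sources used here. The coordinates printed are those of the deposited table. Of its identifiers, 23856 lay at an overlapping place in a GRCm38 annotation (GENCODE), all 25 described genes among them.

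The titles of the samples gave their groups and replicate numbers. CPM was computed from column totals of 11906701 to 19191649 reads. The test across genes was edgeR's quasi-likelihood test on these counts (edgeR 4.0.16, R 4.3.3, TMM factors, 1 term per group over all 12 libraries, tested on simulated data). The expression filter (minimum count 10, minimum total 15) left 14520 genes, and a change is an adjusted p under 0.05 (Benjamini-Hochberg) over all of them. The genes described, the lists and the tests were chosen with earlier results of these data known. Full values were given to the 12 genes with the highest means in each knockdown group and to those within 50 kb of another. Of the flanking genes, the 6 with the smallest p in each direction were to be named. Other genes named outside this rule were chosen after their values were seen.

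Alternatives were DESeq2 1.42.0, its size factors, other filters, limits and distances, only the groups compared, each library left out, and the replicate number as a block. Deviations of same-numbered libraries of the induced control and of the group with both hairpins correlated at 0.31, 0.141 and 0.188. A differently numbered pair, uninduced replicate 3 and induced control replicate 2, reached 0.386. These values do not settle whether the numbers pair libraries. Between replicates, the chi-square of their counts over its degrees of freedom was 1.9 to 17.5, above sampling noise, and none was merged. Promoters came from RefSeq, matched by symbol.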

Additional observations from a re-analysis of the deposited data

Results flagged for a closer look

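Differences between the Trim28 hairpin and both hairpins passed the edgeR test (adjusted p under 0.05) for 11 of the 24 tested genes, and each is listed for that reason. Among all tested genes 10% were higher and 11.7% lower with both hairpins. With both hairpins Prrt3, Clec12a and Ceacam10 were higher, by log2 differences of 1.31, 0.97 and 0.69. These 3 met the limit of 1 CPM in both knockdown groups. Gm1110, Dnah7a and BC051019 were higher by 2.46, 1.26 and 1.15, and had met the limit with both hairpins alone. Mylk4, Il22ra1, Cecr6, Aox4 and Gsdmc3 stood at -2.04, -1.59, -1.52, -1.40 and -1.39, and had met it with the Trim28 hairpin alone. For these last 8 genes the limit itself set the direction, so the test says nothing about them, and for the first 3 the limit of 1 CPM in both groups shaped which genes could be counted. Gsdmc3 and Dnah7a also share sequence with near-identical copies.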

How the results depend on the processing

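Between both hairpins and the Trim28 hairpin, Prrt3, Clec12a and Ceacam10 kept their direction in every setting run, and Gsdma3, Abo and Dnah6, which did not pass and lay near 0, took either sign. The number of silent genes followed its limits: 9 genes with silence at 0.1 CPM, 71 at 0.5 CPM, 8 at 2 CPM or more in a knockdown group and 5 when every library had to meet the limits. Leaving out a library gave 23 to 26, of which 20 to 25 were among the 25. Of the 8 genes of both groups, 3 were higher with both hairpins, 2 to 3 with a library left out, and 1 at a minimum count of 50, where fewer genes were tested. In the other routes, where the limit sets the direction and the counts support nothing, 5 genes of the Trim28 route were lower and 3 of the other route higher, and at that filter 0 and 0. The 5 became 3 with DESeq2, 8 with only the 2 groups compared and 1 to 7 with a library left out, and the 3 became 2 to 4. Over all tested genes, 1452 higher became 2376 with only the 2 groups compared. With a library left out they were 772 to 1775 higher and 1028 to 2015 lower, with the lowest counts without Trim28 replicate 2 and without replicate 1 of the group with both hairpins.

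Within 20 kb, where fewer neighbours were counted, 1 fell with the Trim28 hairpin, and 7 rose and 2 fell with both. Leaving out a library gave 3 to 6 that fell with both. Germline genes that fell with the Trim28 hairpin numbered 0 with DESeq2, at a minimum count of 50 and with no filter, and 0 to 1 with a library left out, and those that rose with both numbered 1 to 3, lowest without replicate 2 of that group. For 2-cell-stage genes that fell with both hairpins the count was 1 with DESeq2, 0 at a minimum count of 50, 1 with only the 2 groups compared and 0 to 2 with a library left out. Where no construction of the setting explains a move, the cause was not tested.

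With the replicate block, the 3 higher genes of both groups numbered 3, and 2-cell-stage genes that fell with both hairpins 1 instead of 2. No other count of calls moved by over 1.5 times. Libraries of the Trim28 group and the group with both hairpins with the same number correlated at 0.191, 0.032 and 0.0927. The block rests on a number alone. Gsdmcl-ps and Olfr754-ps1 then passed as lower with both hairpins (adjusted p = 0.0388 and 0.0352). Depth limits all of this: each of the 25 genes had 10 reads or fewer over the whole induced control, and a difference of a few reads decides which side of 0.2 CPM a gene falls on.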
